A study of Mus musculus with 8 samples.

Results

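Dorsal root ganglia were compared between 3 days after a carrageenan injection into the paw (3d) and the state before injection (0d), across every gene expressed in the ganglion. The comparison used 4 of the 8 libraries of a time course, 2 at 3d and 2 at 0d, and 14948 of the 24421 genes counted, those that reached a CPM (counts scaled to library size) of 1 in at least 2 libraries. All mice were wild-type C57BL/6J, 8 weeks old according to the series text (the study's methods give male mice and an age range that reaches higher), and no group carried a transgene. The 3d mice had received 20 µl of 1% carrageenan in the left hind paw, whereas the 0d mice were taken before any injection, and no mice injected with vehicle alone are among these libraries. Time since injection, injection itself and handling therefore cannot be told apart. RNA of ganglia L3 to L5 from 2 to 3 mice was pooled for each library, so a replicate is a pool of mice. The remaining libraries, 2 at 1d and 2 at 30d after the same injection, entered the fit to estimate the spread between pools and are shown where they place 3d in time. In the study, mechanical hypersensitivity was present at 1d and had resolved by 3d.

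The dorsal root ganglion holds the cell bodies of the sensory neurons that carry touch, body position, itch and pain from the limb to the spinal cord. Peptidergic nociceptors release neuropeptides such as CGRP in the inflamed tissue and in the spinal cord, and inflammation is known to change what these neurons express. Satellite glia wrap each cell body, Schwann cells wrap the axons, and resident macrophages sit among them. Carrageenan, a seaweed polysaccharide, brings neutrophils and prostaglandins into the injected paw, so that the ganglion lies at a distance from the injected tissue. In bulk RNA, fewer cells of a type and less RNA per cell cannot be told apart.

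Totals ranged from 44123208 to 73580338 counts per library, TMM factors from 0.994 to 1.01, and the 10 most abundant genes held 3.84% to 4.25% of a library. The 2 pools of each time point differed beyond sampling noise (chi-square over degrees of freedom 7.82 at 3d, the lowest, and 28.1 at 30d, the highest), and no pair was counted as 1 library. The labels give DRG neurons as the cell type. Pan-neuronal genes were abundant, as with the cytoskeletal protein Tubb3 at 2773 and 2859 CPM at 0d. The satellite glial lipoprotein gene Apoe stood at 2286 and 2241 CPM and the myelin gene Mbp at 2312 and 1759 CPM in the same libraries, so that glia were present and the libraries were read as whole ganglia. The 0d pools differed from each other in genes of Schwann cells, connective tissue, muscle, granulocytes and blood, and these values are given beside the groups they touch.

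At 3d, 31 genes were higher and 5 were lower than at 0d. The 36 called genes are 0.241% of those tested, 0.207% higher and 0.0334% lower, at a Benjamini-Hochberg adjusted p under 0.05 in edgeR's quasi-likelihood test. Most of the changes were small. The median size of the log2 fold change was 0.40 among the called genes and 0.07 among all genes, 23 of the 36 lay under 0.5, and 4 exceeded 1, namely Hif3a, Myh1, Fam107a and Cx3cr1. Both 3d libraries lay beyond both 0d libraries for every called gene, but so they did for 20.2% of all genes upward and 20.4% downward. Of the 31 higher genes, 6 belong to a neuronal list, 3 to the interferon-stimulated list and 4 to the glucocorticoid-responsive list, while the other 18 belong to none of these and 15 of them to no list at all. Of the 34 lists, 20 held no call in edgeR's test, and in 15 of these DESeq2, limma-voom and the fit with the replicate number as a block called no member either, with 0 to 4 members at an unadjusted p under 0.05. The members called by one of these tools in the other 5 lists are named with their groups. All lists were chosen with earlier results of these data known. The shares called within them are thus descriptions and no separate support. The 5 lower genes were Cx3cr1 of macrophages, Pvalb of proprioceptive neurons, Myh1 of muscle, Ccnd1 and Marcks. The calls needed both 3d pools, while no fold change of a called gene reversed without either. Without 3d replicate 1 and 2 in turn, the log2 fold change of Oasl2 was 0.66 and 0.67, beside 0.66 with all libraries. That of Lgals3bp was less steady, at 0.22 and 0.39 beside 0.31. Without 3d replicate 1 no gene was called and without 3d replicate 2 a single other gene was, with 439 and 456 genes at an unadjusted p under 0.05 against 987 (6.6% of the genes tested) with all libraries, and the adjusted p of the 36 genes in these 2 fits ranged from 0.0841 to 1.00. For 10 of them, among which Oasl2, Ptgir, Nptx1, Pfkfb3, Ptchd2, Otud7b, Pappa, Cx3cr1 and Paqr8, no other setting tried ended the call. Without 0d replicate 1 the count was 27, 13 of them shared with the 36, and without 0d replicate 2 it was 57, 23 of them shared, split into 28 higher and 29 lower. Without the 1d libraries 14 of the 36 lost their call, namely Fam107a, Bdnf, Myh1, Hif3a, Zfp91Cntf, Ly6c1, Vwa5a, Ccnd1, Plxna4, Unc13a, Marcks, Loxl4, Lgals3bp and Galnt16. Without robust estimation of the spread 17 did, the last 10 of these genes, Myh1, and also Ptpn9, Cacna2d1, Calca, Pvalb, Arrb1 and Slc7a5.

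**Figure D1:**
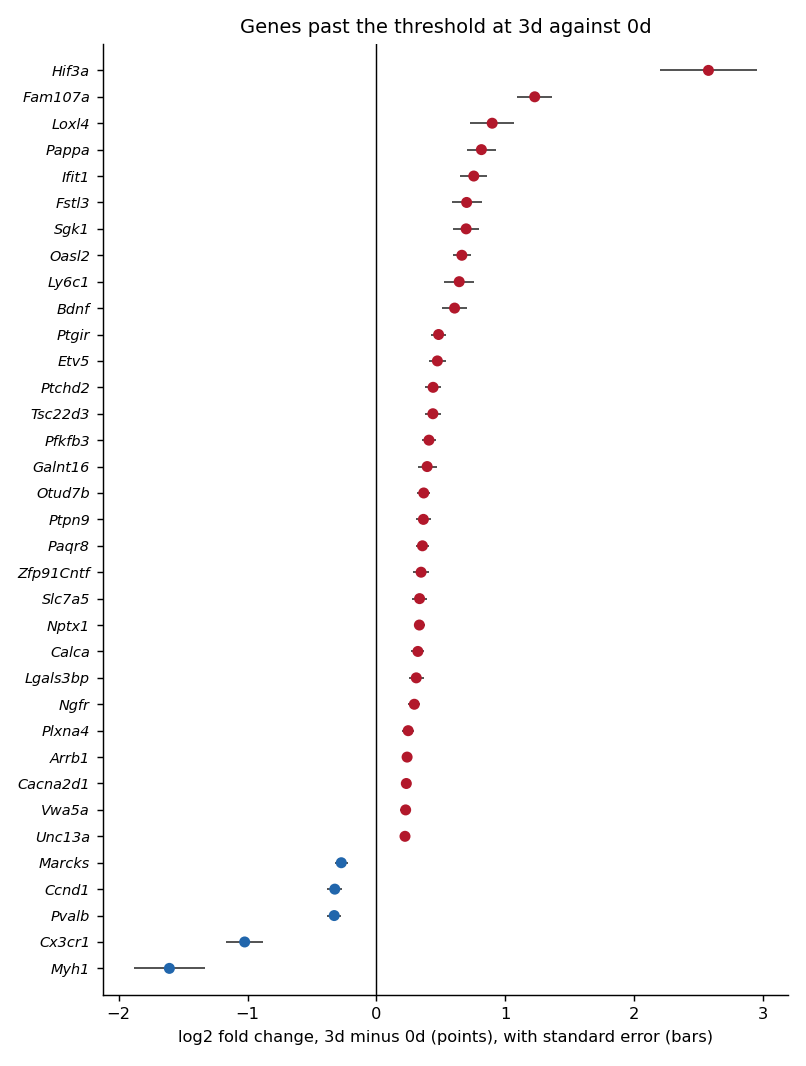
Log2 fold change of 3d over 0d (x axis, log2 units) for the 35 of the 36 called genes that are reported by name, one row per gene, with points for the estimate and bars for ± 1 standard error. Most points lie between 0.2 and 0.9 above 0, Hif3a lies farthest to the right at 2.58, and the 5 lower genes lie at -0.27 to -1.61.

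Of 126 genes tested in the neuronal lists, 7 were called (5.56%, beside 0.241% of all genes), 6 higher and 1 lower. These lists were chosen with earlier results of these data known, so the share is no separate support. The neuropeptide gene Calca, the trophic factor gene Bdnf, the neurotrophin receptor gene Ngfr, the synaptic genes Nptx1 and Unc13a and the calcium channel subunit gene Cacna2d1 rose by 1.17 to 1.52 times, while Pvalb, which encodes the calcium buffer parvalbumin of proprioceptive neurons, fell. The total of 12 pan-neuronal genes barely moved, with a summed level of 12260 and 12760 CPM at 0d and 12630 and 12600 CPM at 3d, a median log2 fold change of 0.01 beside -0.003 over all genes, and no called member.

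Of 10 peptidergic nociceptor markers 1, Calca, was called, higher, beside 0.207% of all genes. Calca encodes the precursor of the peptide CGRP, a vasodilator and pain mediator, on chromosome 7 (mm10, chr7:114631478-114636357, minus strand). It stood at 798 and 891 CPM at 0d and rose to 1037 and 1077 CPM at 3d, with 868 and 932 CPM at 1d and 794 and 786 CPM at 30d. The 3d pools were the highest of the 8 libraries and did not overlap those of any other time, with a log2 fold change over 0d of 0.32 ± 0.05 (SE, adjusted p = 0.0228). The adjusted p was 0.0828 without 0d replicate 1 and 0.0533 without robust estimation of the spread, which left the list with no call. All 10 markers had a fitted change above 0, beside 48.8% of all genes, 9 of the 10 had both 3d pools above both 0d pools beside 20.2% of all genes, and the median log2 fold change was 0.18. The second member in size was Trpa1, the irritant-gated channel, at 57.1 and 58.7 CPM before injection and 69.1 and 69.1 CPM at 3d, which missed the threshold (log2 fold change 0.26, adjusted p = 0.0884) and was called by DESeq2 (adjusted p = 0.0152). The peptide genes Adcyap1 (0.22, adjusted p = 0.337) and Tac1 (0.18, adjusted p = 0.209) and the capsaicin receptor gene Trpv1 (0.15, adjusted p = 0.499) were not called.

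No marker of the other small-diameter neurons was called, and the list medians ran from -0.03 to 0.11, beside -0.003 over all genes. None of the 10 non-peptidergic nociceptor genes was called and their median was 0.03, as with the receptor gene Mrgprd at 174 and 174 CPM at 0d and 169 and 164 CPM at 3d. None of the 8 itch neuron genes was called (median 0.11), the largest being Mrgprx1, an itch receptor gene, at 16.8 and 15.7 CPM against 21.0 and 21.1 CPM (log2 fold change 0.37, adjusted p = 0.216). None of the 6 genes of C-fibre low-threshold mechanoreceptors was called (median -0.03), and the catecholamine enzyme gene Th stood at 84.0 and 94.4 CPM against 87.2 and 84.0 CPM.

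Of 14 large-fibre markers 1, Pvalb, was called, lower, beside 0.0334% of all genes. Pvalb stood at 76.2 and 76.0 CPM at 0d, 71.3 and 68.0 CPM at 1d, 60.6 and 60.8 CPM at 3d, and 67.9 and 72.9 CPM at 30d. The 3d pools were the lowest of the 8, with a log2 fold change of -0.33 ± 0.06 (SE, adjusted p = 0.0243), and the call was lost without either 0d pool (adjusted p = 0.102 and 0.0643). None of the 14 members had a fitted change above 0, 8 had both 3d pools below both 0d pools beside 20.4% of all genes, and the median was -0.12. The transcription factor gene Runx3 of proprioceptive neurons (-0.29, adjusted p = 0.459), the factor gene Etv1 (-0.18, adjusted p = 0.431) and the vesicular glutamate transporter gene Slc17a7 (-0.16, adjusted p = 0.349) were not called. The heavy neurofilament gene Nefh was at 3618 and 3312 CPM at 0d and 3508 and 3404 CPM at 3d, within the spread of the 0d pools.

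**Figure D2:**
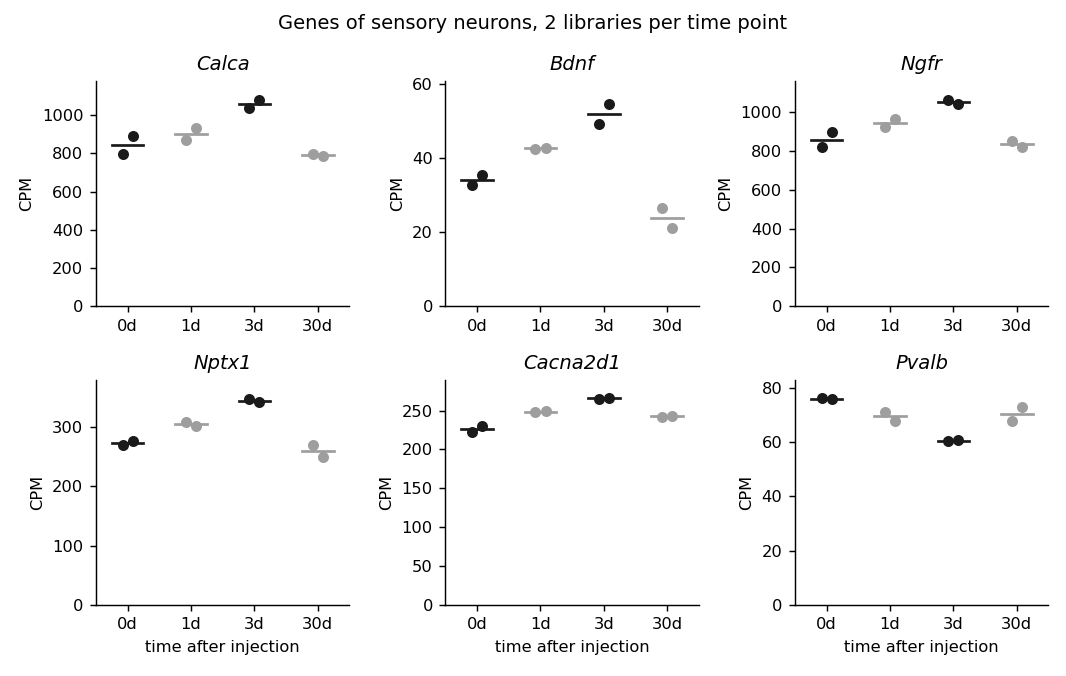
CPM of Calca, Bdnf, Ngfr, Nptx1, Cacna2d1 and Pvalb (y axis, TMM-scaled CPM) at 0d, 1d, 3d and 30d (x axis), one point per pool, black for the 2 times compared and grey for the others, with a line at the mean of the 2 pools. In the first 5 panels both 3d points lie above the points of all other times, and in the Pvalb panel both lie below them.

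Of the neurotrophin system, which keeps sensory neurons alive and sets their sensitivity, a ligand and a receptor were called, both higher, among the 13 of 17 genes tested (beside 0.207% of all genes). Bdnf encodes brain-derived neurotrophic factor, which nociceptors release in the spinal cord, and lies on chromosome 2 (chr2:109674700-109727043, plus strand). It was at 32.8 and 35.5 CPM at 0d, 42.5 and 42.9 CPM at 1d, 49.4 and 54.7 CPM at 3d, and 26.6 and 21.3 CPM at 30d. The groups did not overlap, and 3d was the highest and 30d the lowest of the 4 times (log2 fold change of 3d over 0d 0.61 ± 0.09, adjusted p = 0.0219). The call was lost without 0d replicate 1 (adjusted p = 0.129) and without the 1d libraries in the fit (adjusted p = 0.0611), and 10.7% of the 50-base words of its transcript also occur in the predicted gene Gm45346.

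Ngfr, on chromosome 11 (chr11:95568821-95587698, minus strand), encodes the p75 receptor shared by all neurotrophins and is expressed by neurons and by Schwann cells. It stood at 819 and 899 CPM at 0d and rose to 1063 and 1044 CPM at 3d (log2 fold change 0.30 ± 0.05, adjusted p = 0.0142). The 1d pools, at 922 and 964 CPM, lay between, and the 30d pools, at 854 and 819 CPM, lay in the range of 0d. The call was lost without 0d replicate 1 (adjusted p = 0.0828). The tyrosine kinase receptors were not called, Ntrk2 at 269 and 260 CPM against 265 and 260 CPM and Ntrk3 at 47.1 and 40.1 CPM against 42.9 and 44.2 CPM. Over the list the median log2 fold change was 0.01.

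Among the 23 genes of vesicle release and of secreted synaptic organisers, 2 were called, both higher (beside 0.207% of all genes), and the median was -0.04. Nptx1 encodes neuronal pentraxin 1, a secreted protein that gathers AMPA receptors at synapses, on chromosome 11. It rose from 271 and 276 CPM to 347 and 342 CPM (log2 fold change 0.33 ± 0.04, adjusted p = 0.00698), with 309 and 303 CPM at 1d and 269.8 and 250 CPM at 30d. Its relatives had both 3d pools above both 0d pools but were not called. Nptxr was at 224 and 238 CPM against 277 and 268 CPM (0.24, adjusted p = 0.0575, and 0.00145 with DESeq2). Nptx2 was at 113 and 124 CPM against 176 and 178 CPM (0.58, adjusted p = 0.645, and 0.000222 with 0d and 3d fitted alone), spread between 131 and 93.6 CPM at 30d. Unc13a, whose product primes vesicles for fusion, was at 188 and 182 CPM against 218 and 214 CPM (0.22 ± 0.04, adjusted p = 0.0442), a call lost without 0d replicate 1 or 2 (adjusted p = 0.0969 and 0.153), without the 1d libraries (0.0737) or without robust estimation (0.0973). The core fusion genes Snap25 (-0.09, adjusted p = 0.663), Vamp1 (-0.12, adjusted p = 0.391) and Cplx1 (-0.10, adjusted p = 0.647) were not called.

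Of the ion channels, Cacna2d1 was the only called member among 15 calcium channel genes and 11 sodium channel genes, beside 0.207% of all genes higher. It encodes the α2δ-1 subunit, the target of gabapentin, and was at 222 and 230 CPM at 0d, 248 and 249 CPM at 1d, 265 and 266 CPM at 3d and 242 and 243 CPM at 30d. The 3d pools were above all others (0.23 ± 0.04, adjusted p = 0.0219), and the call was lost without 0d replicate 1 (adjusted p = 0.119). Scn10a, which encodes the nociceptor sodium channel Nav1.8, stood at 1020 and 1080 CPM against 1230 and 1217 CPM and lay just outside the threshold (0.22, adjusted p = 0.0503), inside which DESeq2 (adjusted p = 0.00028), limma-voom (adjusted p = 0.0313) and the replicate block (adjusted p = 0.0407) placed it. The N-type channel gene Cacna1b, at 195 and 181 CPM against 211 and 214 CPM, was not called (0.18, adjusted p = 0.281). Medians were 0.09 for the calcium channels and 0.01 for the sodium channels.

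Further called genes encode receptors, signalling proteins and a transcription factor that are not particular to neurons. Ptgir, on chromosome 7 (chr7:16906490-16910905, plus strand), encodes the prostacyclin receptor, through which the prostaglandin made in inflamed tissue sensitises nociceptors. It was at 62.9 and 61.7 CPM at 0d, 84.1 and 77.1 CPM at 1d, 87.1 and 87.1 CPM at 3d and 63.6 and 60.7 CPM at 30d (0.48 ± 0.06, adjusted p = 0.00407). The 3d pools lay above all others, and the 30d pools at the level of 0d. Of the 15 prostanoid genes tested it was the only one called, beside 0.207% of all genes higher, with a median of -0.01. The enzyme gene Ptgs2 was too low to test, at 0.283 CPM or less in every library, and the receptor gene Ptger4 was at 16.6 and 18.5 CPM against 16.4 and 17.8 CPM.

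Arrb1, which encodes the receptor-desensitising protein β-arrestin 1, rose from 387 and 398 CPM to 463 and 464 CPM (0.24 ± 0.04, adjusted p = 0.0248). Plxna4, a receptor gene for axon-guiding semaphorins, rose from 139.5 and 134 CPM to 161 and 163 CPM (0.25 ± 0.05, adjusted p = 0.0442). Etv5, a transcription factor gene induced through the ERK kinases, rose from 98.6 and 101 CPM to 138 and 139 CPM (0.47 ± 0.07, adjusted p = 0.0131), with 26.8% of its words shared with Gm4798. It was 1 of 12 tested genes of the ERK feedback list, beside 0.207% of all genes higher. The other 11 were not called, their range running from Spry1 at -0.34 to Spred3 at 0.48. Marcks, the gene of a protein kinase C substrate that binds actin, fell from 155 and 143 CPM to 124 and 123 CPM (-0.27 ± 0.05, adjusted p = 0.0442), and was at 124 and 124 CPM at 1d and 121 and 129 CPM at 30d. For Marcks 3d was thus not set apart from the other times after injection. Without 0d replicate 1 the adjusted p was 0.129 for Arrb1, 0.0819 for Plxna4, 0.0877 for Etv5 and 0.254 for Marcks, and without 0d replicate 2 it was 0.17 for Plxna4.

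Genes that respond to nerve injury and to neuronal firing gave no calls. None of the 16 tested nerve injury genes was called, and the median was 0.02. Atf3, the injury transcription factor gene, stood at 5.92 and 9.79 CPM against 8.37 and 7.73 CPM, the neuropeptide gene Gal at 9.54 and 11.1 CPM against 10.8 and 9.81 CPM, and Jun at 121 and 122 CPM against 137 and 138 CPM (0.18, adjusted p = 0.209). Of the 16 immediate early genes tested none was called and 4 had a fitted change above 0, beside 48.8% of all genes, with Fos at 5.05 and 5.00 CPM against 3.46 and 4.16 CPM (-0.40, adjusted p = 0.771).

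**Figure D3:**
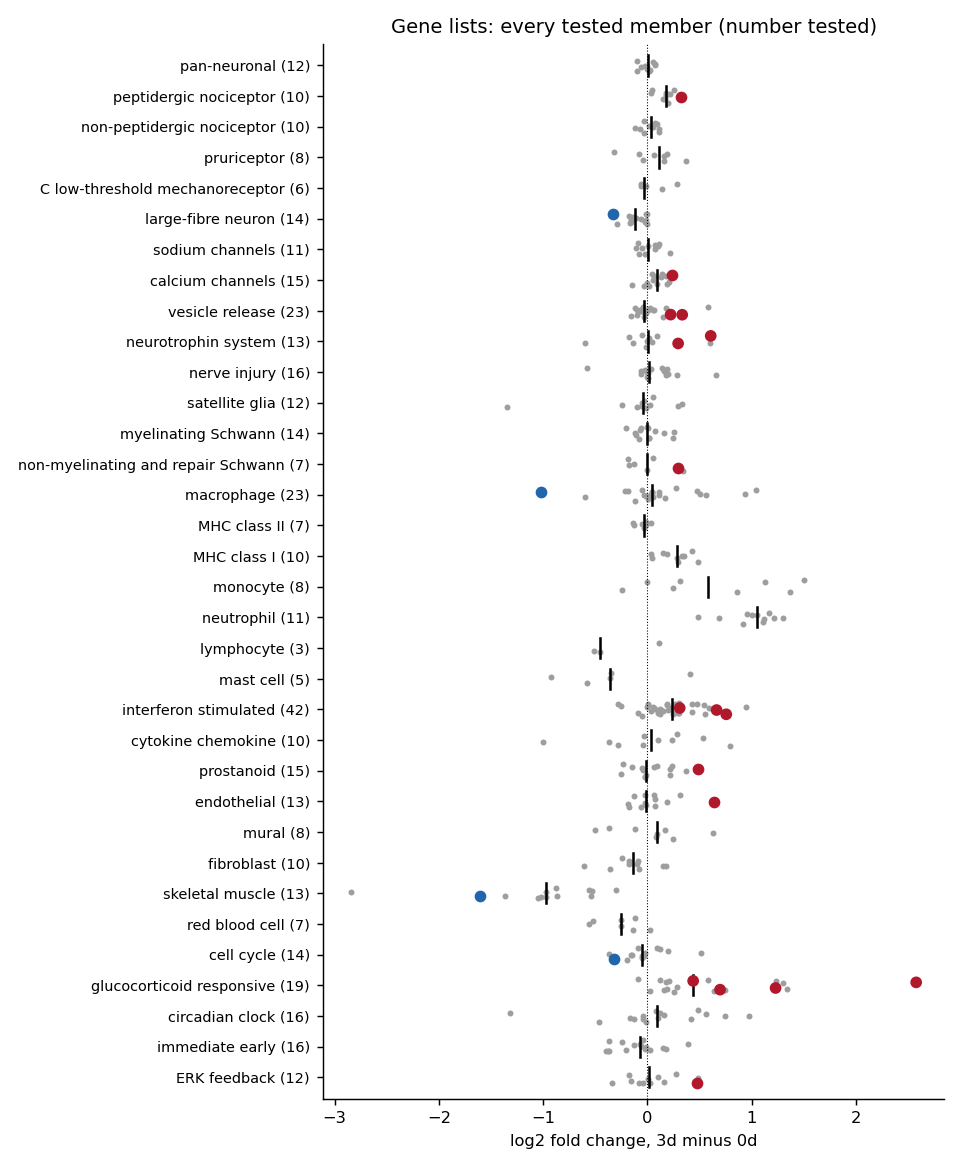
Log2 fold change of 3d over 0d (x axis, log2 units) for every tested member of the 34 gene lists, one row per list, with red points called higher, blue points called lower, grey points not called and a black tick at the median of the list. The large-fibre and muscle rows lie at or below 0, the peptidergic, MHC class I and neutrophil rows above 0, and the glucocorticoid row holds the most red points, 4.

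Glia gave a single call. None of 12 satellite glial genes and none of 14 myelin genes was called, and of the 7 tested genes of non-myelinating and repair Schwann cells only Ngfr was, which neurons express as well (1 of 33 glial genes, 3.03%, beside 0.207% of all genes higher). The summed satellite glial level was 4049 and 3976 CPM at 0d and 3908 and 3929 CPM at 3d. Fabp7, the brain fatty acid-binding protein gene of satellite glia, had the widest change of the list, at 148 and 176 CPM at 0d, 91.3 and 83.1 CPM at 1d, 61.6 and 65.5 CPM at 3d and 63.1 and 136 CPM at 30d. Its 3d pools were below both 0d pools, but the pools of 30d lay far apart and the change was not called (-1.35 ± 0.40, adjusted p = 0.647), except with 0d and 3d fitted alone (adjusted p = 0.0019). Glul, the glutamine synthetase gene, was at 393 and 380 CPM against 488 and 482 CPM (0.33, adjusted p = 0.528, and 0.000875 with 0d and 3d fitted alone), the gap junction gene Gja1 at 35.2 and 35.2 CPM against 29.6 and 30.0 CPM (-0.24, adjusted p = 0.321), and Apoe at 2175 and 2184 CPM at 3d (-0.05, adjusted p = 0.904). The median of the list was -0.04.

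The myelin genes summed to 12220 and 9068 CPM at 0d, compared with 10320 and 10270 CPM at 3d, and both 3d pools lay between the 0d pools. Mbp, the gene of myelin basic protein, was at 1956 and 1938 CPM at 3d (-0.06, adjusted p = 0.993). The repair Schwann cell genes Gfap, at 0.662 and 1.37 CPM against 1.22 and 1.37 CPM (0.34, adjusted p = 0.968), and Shh, at 35.5 and 35.7 CPM against 32.5 and 30.1 CPM (-0.18, adjusted p = 0.737), were not called.

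Among macrophage genes 1 fell, and edgeR's test called none of the others. Cx3cr1, on chromosome 9 (chr9:120048683-120068296, minus strand), encodes the receptor for fractalkine, by which resident macrophages sense neurons. It was at 10.8 and 10.9 CPM at 0d, 8.17 and 9.91 CPM at 1d, 5.63 and 5.06 CPM at 3d and 8.41 and 7.43 CPM at 30d. The 3d pools were the lowest of the 8 and overlapped no other time, with a log2 fold change of -1.02 ± 0.15 (SE, adjusted p = 0.00934), 0.492 times the level at 0d. Of the 23 macrophage genes tested it was the only call by edgeR, beside 0.0334% of all genes lower, the median of the list was 0.05, and the list summed to 312 and 287 CPM at 0d and 296 and 299.8 CPM at 3d.

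The receptor gene Csf1r, needed for macrophage survival, was at 33.6 and 26.4 CPM against 30.2 and 29.3 CPM (-0.01, adjusted p = 0.999). The complement gene C1qa was at 19.9 and 18.4 CPM against 19.3 and 20.2 CPM, and Adgre1, which encodes F4/80, at 7.03 and 6.01 CPM against 5.49 and 5.99 CPM (-0.18, adjusted p = 0.968). Both 3d pools of Csf1r, and 1 of 2 for C1qa, lay within the range of the 0d pools. Lyve1 and Cd163, markers of perivascular macrophages, were higher at 3d without passing the test, Lyve1 at 4.18 and 3.39 CPM against 7.65 and 6.80 CPM (0.94, adjusted p = 0.0832) and Cd163 at 5.25 and 4.20 CPM against 10.7 and 8.76 CPM (1.04, adjusted p = 0.321). DESeq2 called both as higher (adjusted p = 0.00564 for Lyve1 and 0.00633 for Cd163), and with the replicate block edgeR called Cd163 (adjusted p = 0.0102). Fcrls, a resident macrophage gene, was at 9.41 and 6.63 CPM against 5.89 and 4.67 CPM (-0.60, adjusted p = 0.44). Cx3cl1, the gene of fractalkine itself, was at 10.2 and 9.64 CPM against 9.69 and 9.70 CPM. None of the 7 tested genes of MHC class II, which presents antigen to helper T cells, was called, and their sum was 299 and 279 CPM against 278 and 279.9 CPM (median -0.03).

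**Figure D4:**
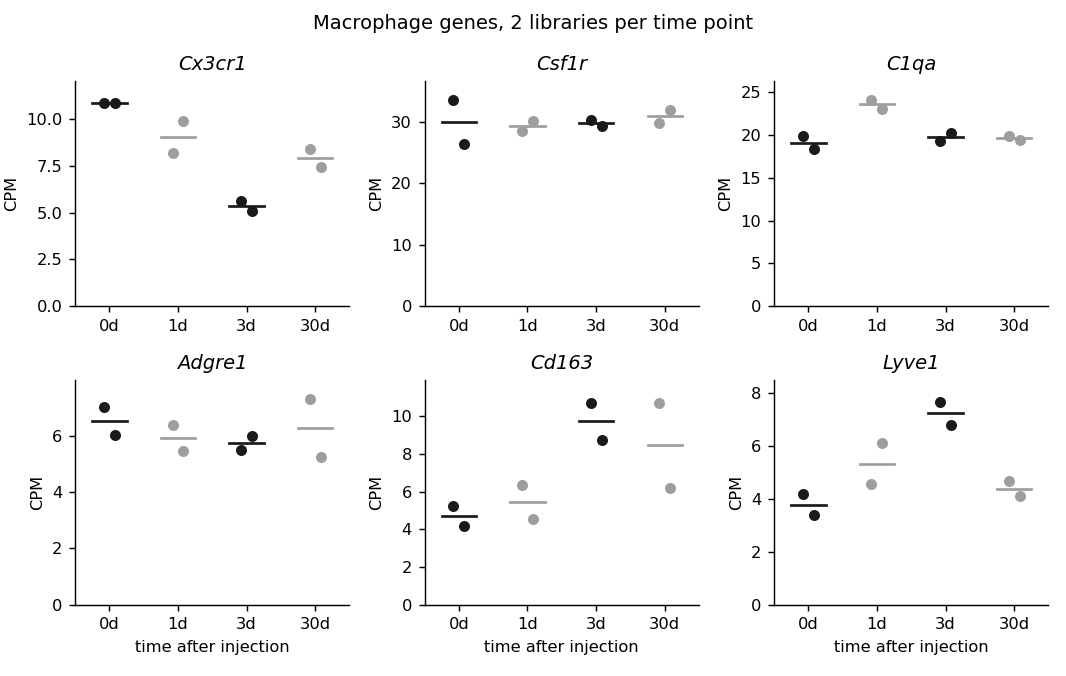
CPM of Cx3cr1, Csf1r, C1qa, Adgre1, Cd163 and Lyve1 (y axis, TMM-scaled CPM) at 0d, 1d, 3d and 30d (x axis), one point per pool, black for 0d and 3d and grey for 1d and 30d, with a line at the mean of the 2 pools. The Cx3cr1 points at 3d, 5.63 and 5.06 CPM, are the lowest of their panel, while the 3d points of Csf1r and C1qa lie beside those of 0d.

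Of 42 interferon-stimulated genes 3 were called, all higher, beside 0.207% of all genes. This list too was chosen with earlier results of these data known. Interferons act on most cells through STAT transcription factors and turn on antiviral genes. Oasl2, an oligoadenylate synthetase-like gene on chromosome 5 (chr5:114896934-114912245, plus strand), had the smallest p of all genes. It was at 44.7 and 48.5 CPM at 0d, 102.5 and 87.6 CPM at 1d, 73.97 and 73.8 CPM at 3d and 39.4 and 39.1 CPM at 30d (0.66 ± 0.07, adjusted p = 0.00314). Ifit1, whose product binds viral RNA, on chromosome 19 (chr19:34640889-34650009, plus strand), was at 22.8 and 22.4 CPM at 0d, 82.5 and 62.6 CPM at 1d, 38.0 and 38.3 CPM at 3d and 17.4 and 17.6 CPM at 30d (0.76 ± 0.10, adjusted p = 0.0136). Lgals3bp, the gene of a secreted galectin-binding protein, was at 66.4 and 68.3 CPM at 0d, 104 and 102 CPM at 1d, 88.4 and 78.7 CPM at 3d and 69.1 and 68.5 CPM at 30d (0.31 ± 0.06, adjusted p = 0.0442). In all 3 the pools of 3d lay between those of 1d above and those of 0d and 30d below. Calls were lost without 0d replicate 1 or 0d replicate 2 for Ifit1 (adjusted p = 0.0949 and 0.0756) and for Lgals3bp (adjusted p = 0.186 and 0.085), and with limma-voom for both.

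The other 39 interferon-stimulated genes tested were not called by edgeR in the fit of all 8 libraries. Among them DESeq2 called Ifit3 (adjusted p = 0.0309) and Eif2ak2 (adjusted p = 0.0297), and edgeR with 0d and 3d fitted alone called Ifit3 (adjusted p = 0.0229). Over the whole list the median log2 fold change was 0.23, 37 of 42 had a fitted change above 0 beside 48.8% of all genes, and 25 had both 3d pools above both 0d pools beside 20.2%. The sum was 734 and 748 CPM at 0d, 1452 and 1278 CPM at 1d, 881 and 874 CPM at 3d and 752 and 685 CPM at 30d, so that the summed level at 3d lay nearer to 0d than to 1d. Isg15, the ubiquitin-like modifier gene, was at 4.14 and 4.10 CPM before injection, 17.8 and 16.2 CPM at 1d and 4.04 and 4.41 CPM at 3d (0.04, adjusted p = 0.996). The chemokine gene Cxcl10 was at 3.78 and 2.31 CPM against 2.59 and 2.41 CPM (-0.28, adjusted p = 0.973), and Ifit3 at 13.8 and 13.7 CPM against 19.2 and 19.0 CPM (0.47, adjusted p = 0.205). The 10 genes of MHC class I presentation all had a fitted change above 0, beside 48.8% of all genes, with a median of 0.29. Of them 9 had the 3d pools above both 0d pools, beside 20.2%. None was called by edgeR in the fit of all 8 libraries, 4 having an unadjusted p under 0.05. H2-K1 was called by DESeq2 (0.33, adjusted p = 0.0346). With 0d and 3d fitted alone edgeR called H2-K1 (adjusted p = 0.0082) and B2m (0.35, adjusted p = 0.00271). The peptide transporter gene Tap1 was at 10.3 and 10.7 CPM against 14.5 and 13.7 CPM (0.42, adjusted p = 0.396).

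Promoters are shown for Ifit1 and Oasl2, the called interferon-stimulated genes with the smallest p, since the interferon-stimulated response element is the sequence through which interferons act. Its core, GAAA followed by any 2 bases and GAAA, was sought on both strands of the 250 bases before each RefSeq start (GRCm38.p6). It was found in 14 of 31 listed interferon genes with an entry (45.2%), 4 of 25 called genes (16.0%) and 359 of 11707 tested genes (3.07%). The window of Ifit1 holds the core in reverse on the plus strand, at 104 and 85 bases before the start, while those of Oasl2 and of Lgals3bp, the latter not shown, hold none. A gene with several starts has several windows and so more chances of a match. The cores are in capitals, and the Ifit1 window is restricted to bases outside annotated exons.
Ifit1, chr19:34640744-34640870, plus strand: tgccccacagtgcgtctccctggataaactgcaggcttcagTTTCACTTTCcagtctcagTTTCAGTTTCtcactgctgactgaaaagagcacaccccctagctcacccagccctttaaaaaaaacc
Oasl2, chr5:114896684-114896933, plus strand: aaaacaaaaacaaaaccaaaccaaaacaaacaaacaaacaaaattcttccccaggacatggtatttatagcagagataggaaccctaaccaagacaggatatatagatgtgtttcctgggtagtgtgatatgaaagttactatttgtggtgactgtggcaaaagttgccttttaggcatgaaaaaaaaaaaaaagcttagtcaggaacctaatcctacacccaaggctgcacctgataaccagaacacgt
These letters describe the windows, and binding was not measured. The other called genes with this core were Sgk1, Bdnf and Unc13a.

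Other immune cells gave no calls. The 11 tested neutrophil genes all had both 3d pools above both 0d pools, beside 20.2% of all genes, and a median of 1.05, but the 0d pools themselves differed, their sum being 54.0 and 117 CPM at 0d, 131 and 138 CPM at 1d, 175 and 175 CPM at 3d and 279 and 116 CPM at 30d. S100a8, a granulocyte calcium-binding protein gene, was at 6.46 and 12.7 CPM against 20.8 and 20.9 CPM (1.12, adjusted p = 0.824). The monocyte list had a median of 0.58 with none of 8 called, its largest member being Plac8 at 0.397 and 0.961 CPM against 2.33 and 1.59 CPM (1.51, adjusted p = 0.302). Haemoglobin transcripts, a sign of blood in the sample, also differed between the 0d pools, with Hbb-bs at 40.2 and 81.7 CPM at 0d and 55.7 and 56.5 CPM at 3d. The part of blood in the granulocyte values was not tested. Only 3 of 12 lymphocyte genes reached the test, and the T cell gene Cd3e was at 0.465 CPM or less at 0d and 3d. The inflammatory cytokine genes Il1b, Il6 and Tnf stayed under 1 CPM in every library. None of the 10 tested cytokine and chemokine genes was called, 4 having an unadjusted p under 0.05, beside 6.6% of all genes. Of the 10, 5 had a fitted change above 0 and 5 below. The largest rise was that of Ccl2, at 0.813 and 1.12 CPM against 1.65 and 1.72 CPM (0.80, adjusted p = 0.696). The largest fall was that of the chemokine gene Ccl7 (-1.0047, adjusted p = 0.592).

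Of 13 endothelial, 8 pericyte and smooth muscle and 10 fibroblast genes tested, 1, Ly6c1, was called, beside 0.207% of all genes higher. Ly6c1, a surface protein gene of endothelial cells, rose from 15.8 and 15.6 CPM to 25.6 and 23.4 CPM, with 24.0 and 22.7 CPM at 1d and 18.6 and 14.1 CPM at 30d (0.64 ± 0.12, adjusted p = 0.0427). The other 12 endothelial genes were not called, Pecam1 at 18.0 and 18.6 CPM against 19.5 and 18.8 CPM and Cdh5 at 34.6 and 28.3 CPM against 30.2 and 27.3 CPM. Of its 50-base words 36.7% occur in other genes, most of them in Ly6c2, a monocyte gene at 0.926 and 1.77 CPM against 2.98 and 2.97 CPM. Without 0d replicate 1 or 2 the adjusted p of Ly6c1 was 0.150 and 0.143. Among pericyte and smooth muscle genes the largest was Myh11, at 8.32 and 7.07 CPM against 11.9 and 11.8 CPM (0.63, adjusted p = 0.105), which DESeq2 called (adjusted p = 0.018). Of the fibroblast list 0 of 10 were called by edgeR, 2 having an unadjusted p under 0.05, and the median was -0.13, with the matrix gene Postn at 35.8 and 31.9 CPM against 23.1 and 21.4 CPM (-0.60, adjusted p = 0.0614). Postn was called as lower by limma-voom (adjusted p = 0.0417) and by DESeq2 (adjusted p = 0.000261). The fibroblast sum was 2055 and 1395 CPM at 0d and 1506 and 1512 CPM at 3d.

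Myh1, a fast myosin heavy chain gene of skeletal muscle, fell from 6.67 and 3.83 CPM to 1.87 and 1.57 CPM (-1.61 ± 0.28, adjusted p = 0.0266). It was at 1.99 and 1.80 CPM at 1d and 4.99 and 3.81 CPM at 30d. Of its 50-base words 32.1% occur in other genes, 19.7% in the related gene Myh2. Muscle surrounds the vertebrae from which ganglia are dissected. Of the 13 tested muscle genes it alone was called, beside 0.0334% of all genes lower. All 13 had a fitted change below 0, where 48.8% of all genes had one above 0, with a median of -0.97, and their sum was 192 and 101 CPM at 0d, 40.4 and 85.3 CPM at 1d, 86.3 and 85.8 CPM at 3d and 155 and 31.2 CPM at 30d. The pools of 1 time point thus differed up to several fold in muscle RNA, and the part of dissection in the fall of Myh1 was not tested. Its adjusted p was 0.213 without 0d replicate 1, 0.0549 without the 1d libraries and 0.0761 without robust estimation. Ccnd1, the cyclin D1 gene that drives entry into the cell cycle, fell from 59.6 and 57.8 CPM to 47.9 and 46.0 CPM (-0.32 ± 0.06, adjusted p = 0.0442), a call lost without 0d replicate 1 or 2 (adjusted p = 0.184 and 0.0833), and 27.2% of its words occur in the gene LTO1. It was the only one of 14 tested cell cycle genes to be called, beside 0.0334% of all genes lower, with the proliferation marker gene Mki67 at 4.31 and 7.54 CPM against 5.74 and 5.86 CPM.

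Glucocorticoid-responsive genes held the most calls of any list, 4 of 19 tested beside 0.207% of all genes, all higher. These genes are switched on by the adrenal stress hormones through the glucocorticoid receptor in neurons, glia and immune cells alike. Their list was chosen with earlier results of these data known, so the share called is no separate support. Tsc22d3, which encodes the anti-inflammatory protein GILZ, was at 156 and 157 CPM at 0d, 157 and 182 CPM at 1d, 212 and 213 CPM at 3d and 167 and 153 CPM at 30d (0.44 ± 0.06, adjusted p = 0.0139). Sgk1, on chromosome 10 (chr10:21882184-21999902, plus strand), encodes a kinase that regulates ion channels and was at 31.5 and 26.5 CPM at 0d, 27.3 and 33.9 CPM at 1d, 45.6 and 48.3 CPM at 3d and 29.0 and 27.7 CPM at 30d (0.70 ± 0.10, adjusted p = 0.0163). In both, the 3d pools stood above all others, whose ranges overlapped.

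Fam107a, on chromosome 14 (chr14:8296278-8309776, minus strand), encodes a stress-induced actin-binding protein. It was at 23.6 and 18.5 CPM at 0d, 29.4 and 28.3 CPM at 1d, 51.9 and 46.5 CPM at 3d and 25.7 and 20.1 CPM at 30d, 2.35 times the 0d level at 3d (1.23 ± 0.14, adjusted p = 0.012). Hif3a, a gene of the hypoxia-inducible factor family, had the largest change among the called genes, from 1.10 and 1.37 CPM at 0d to 7.50 and 7.29 CPM at 3d, with 2.08 and 1.94 CPM at 1d and 4.96 and 1.92 CPM at 30d (2.58 ± 0.38, adjusted p = 0.0266). Its 30d pools lay far apart, and without 0d replicate 1 or 2 its adjusted p was 0.193 and 0.116. Without the 1d libraries in the fit the adjusted p was 0.0519 for Fam107a and 0.117 for Hif3a. Tsc22d3 lost its call without 0d replicate 1 or 2 (adjusted p = 0.103 and 0.06), and Sgk1 without 0d replicate 2 (adjusted p = 0.053).

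**Figure D5:**
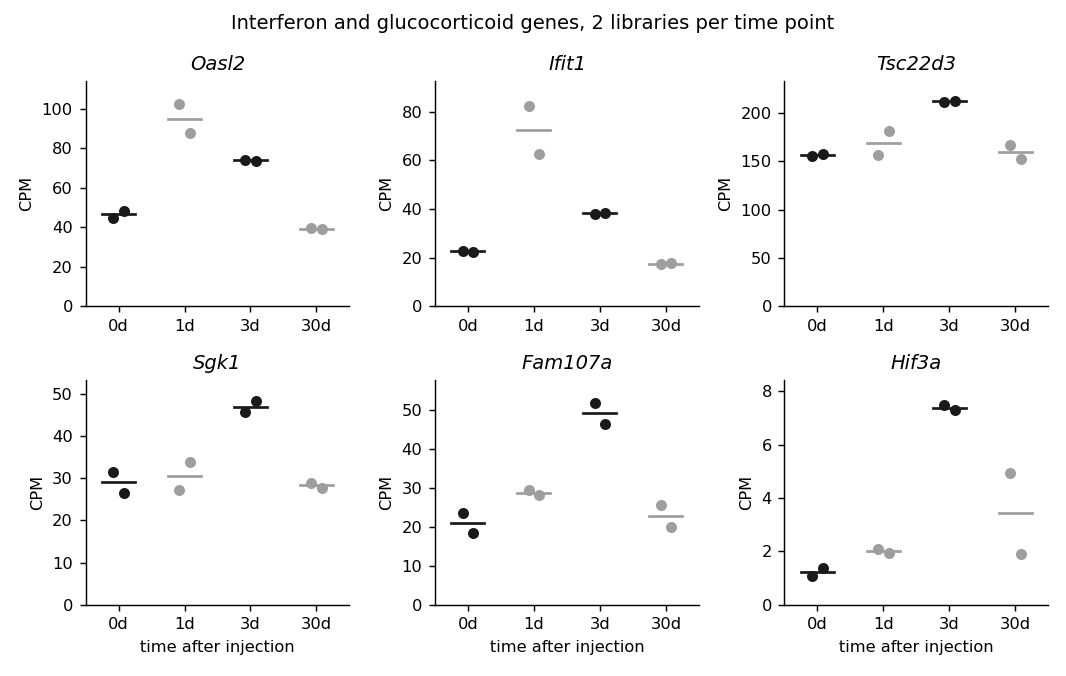
CPM of Oasl2, Ifit1, Tsc22d3, Sgk1, Fam107a and Hif3a (y axis, TMM-scaled CPM) at 0d, 1d, 3d and 30d (x axis), one point per pool, black for 0d and 3d and grey for 1d and 30d, with a line at the mean of the 2 pools. The interferon-stimulated genes Oasl2 and Ifit1 peak at 1d, and the other 4 genes peak at 3d.

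The other 15 glucocorticoid-responsive genes tested were not called by edgeR in the fit of all 8 libraries. With 0d and 3d fitted alone, where 120 genes were called in all, edgeR called some of the 15 as higher. They were Mt2 (adjusted p = 7.29e-06), Zbtb16 (0.000376), Fkbp5 and Mt1 (0.000407 each), Ddit4 (0.0188) and Klf9 (0.041). Of the 15, DESeq2 called Fkbp5 (adjusted p = 3.17e-06), Mt1 (adjusted p = 3.21e-05) and Mt2 (adjusted p = 2.23e-12) as higher. Mt2 was called by limma-voom (adjusted p = 0.0355) and with the replicate block (adjusted p = 0.0259) as well. Over the whole list the median was 0.44, 18 of 19 had a fitted change above 0 beside 48.8% of all genes, 15 had both 3d pools above both 0d pools beside 20.2%, and the sum was 735 and 707 CPM at 0d, 735 and 799.9 CPM at 1d, 978 and 976 CPM at 3d and 781 and 685 CPM at 30d. Fkbp5, a chaperone gene that dampens the glucocorticoid receptor, was at 50.2 and 55.7 CPM against 78.4 and 80.3 CPM (0.58, adjusted p = 0.157). The metallothionein gene Mt2 was at 17.0 and 16.8 CPM against 39.9 and 39.8 CPM (1.24, adjusted p = 0.142), and the transcription factor gene Zbtb16 at 4.48 and 4.14 CPM against 10.7 and 11.04 CPM (1.34, adjusted p = 0.671), with 30d pools of 11.7 and 4.39 CPM. Some listed genes are not particular to the hormone, since Per1 is also a clock gene and Lcn2 a granulocyte gene.

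Clock genes are given because glucocorticoids and the time of day move together, and the hour of collection is not given in the sources used here. None of the 16 clock genes was called in edgeR's test, 4 of them having an unadjusted p under 0.05. DESeq2 called Nr1d1 (adjusted p = 5.99e-05) and Arntl (adjusted p = 0.0101), both lower, and the fit with the replicate block called Nr1d1 (adjusted p = 0.0025). Arntl, the clock activator gene, was at 5.27 and 6.22 CPM at 0d, 2.82 and 2.89 CPM at 1d, 2.43 and 2.19 CPM at 3d and 2.49 and 5.89 CPM at 30d (-1.32, adjusted p = 0.228). Per2, a clock repressor gene, was at 10.7 and 6.84 CPM at 0d and 16.6 and 17.7 CPM at 3d (0.97, adjusted p = 0.782), Nr1d1 at 100.2 and 86.2 CPM against 71.5 and 63.9 CPM (-0.46, adjusted p = 0.142), and Cry1 at 11.4 and 12.8 CPM against 16.7 and 15.9 CPM (0.42, adjusted p = 0.171). For each of these 4 genes the 3d pools lay apart from the 0d pools. Over the whole list 8 of 16 had both 3d pools above both 0d pools, beside 20.2% of all genes, and 4 had both below, beside 20.4%. The part of the hour of collection in the glucocorticoid values was not tested.

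Promoters of 2 genes of this group are shown with the core of the glucocorticoid response element, ACANNNTGT, sought in the same windows on both strands. It was found in 4 of 17 listed glucocorticoid genes with an entry (23.5%), 4 of 25 called genes (16.0%) and 537 of 11707 tested genes (4.59%). Fam107a holds it at 116 bases before the start, in a window restricted to bases outside annotated exons, and 1 of its 3 windows lacks it. Sgk1 holds it in 2 of its 6 windows, at 186 bases before the start in the one shown and at 127 in the other, and 4 windows lack it. The core is in capitals.
Fam107a, chr14:8309796-8310029, minus strand: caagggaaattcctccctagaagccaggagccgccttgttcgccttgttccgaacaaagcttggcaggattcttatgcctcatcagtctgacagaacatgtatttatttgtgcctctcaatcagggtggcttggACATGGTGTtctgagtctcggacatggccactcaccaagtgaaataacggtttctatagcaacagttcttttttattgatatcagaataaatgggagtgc
Sgk1, chr10:21993640-21993889, plus strand: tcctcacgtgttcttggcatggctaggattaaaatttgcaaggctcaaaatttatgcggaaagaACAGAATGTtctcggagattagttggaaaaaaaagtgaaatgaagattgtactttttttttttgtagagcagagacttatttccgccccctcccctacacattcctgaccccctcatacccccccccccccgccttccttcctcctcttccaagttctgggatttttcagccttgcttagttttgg
Bdnf, in 2 of its 7 windows, and Fstl3, in its 1 window, were the other called genes with this core. A gene with more windows has more chances of a match. The 2 matching windows of Fam107a overlap and hold the same site. The cyclic AMP response element TGACGTCA was found in 0 of 25 called genes beside 2.93% of tested genes. A match is a description of the letters and not of a bound site.

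The other called genes belong to no list and have varied roles. Pappa, which encodes a protease that frees insulin-like growth factors, rose from 13.5 and 13.2 CPM to 25.0 and 22.0 CPM (0.82 ± 0.11, adjusted p = 0.0075). Pfkfb3, whose product drives glycolysis, rose from 98.4 and 99.8 CPM to 129.8 and 133 CPM (0.41 ± 0.05, adjusted p = 0.00698). At 1d both lay between 0d and 3d, and at 30d both were below both 3d pools, as with Pappa at 13.2 and 11.4 CPM.

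Ptchd2, a membrane protein gene with a sterol-sensing domain, rose by 0.44, Otud7b, a deubiquitinase gene, by 0.37, Paqr8, a membrane progesterone receptor gene, by 0.36, and Ptpn9, a tyrosine phosphatase gene, by 0.37 on the log2 scale. Slc7a5, which encodes the large neutral amino acid transporter, was at 73.3 and 74.7 CPM against 95.5 and 91.5 CPM (0.34 ± 0.06, adjusted p = 0.0266), and Vwa5a at 372 and 397 CPM against 451 and 450.4 CPM (0.23 ± 0.04, adjusted p = 0.0427). Loxl4, a collagen cross-linking enzyme gene, was at 4.78 and 6.09 CPM against 10.7 and 9.63 CPM (0.90 ± 0.17, adjusted p = 0.0442), and Galnt16, a gene of O-glycosylation, at 32.8 and 29.1 CPM against 40.2 and 41.2 CPM (0.39 ± 0.07, adjusted p = 0.0457). All 8 had their highest mean at 3d of the 4 times. The adjusted p without 0d replicate 1 was 0.11 for Ptpn9, 0.133 for Slc7a5, 0.205 for Vwa5a and 0.258 for Loxl4, and without 0d replicate 2 it was 0.0643 for Slc7a5 and 0.231 for Galnt16.

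Called genes that overlap others are uncertain, since read pairs over several genes were counted for each. Fstl3, an activin inhibitor gene, was at 9.13 and 9.94 CPM against 15.0 and 16.1 CPM (0.70 ± 0.12, adjusted p = 0.0228) and shares 59.2% of its length with Prss57, itself at 0.65 (adjusted p = 0.0569). Zfp91Cntf, a read-through of the genes Zfp91 and Cntf, lies wholly over both and was at 82.5 and 80.9 CPM against 105 and 103 CPM (0.35 ± 0.06, adjusted p = 0.0309). Of these neighbours Zfp91 was at 124 and 124 CPM against 129.8 and 131 CPM, and Cntf, the gene of a neurotrophic cytokine, at 38.7 and 35.6 CPM against 58.1 and 54.9 CPM (0.61, adjusted p = 0.327, and 0.000165 with DESeq2). The calls of Fstl3 and Zfp91Cntf were lost without 0d replicate 1 (adjusted p = 0.146 and 0.11), and without 0d replicate 2 that of Zfp91Cntf (adjusted p = 0.116). For 23 of the 36 genes, under 1% of the words occur elsewhere.

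In time, 3d was the extreme for most called genes. Of the 31 higher genes 28 had their highest mean at 3d, and the 3 that did not were the interferon-stimulated Oasl2, Ifit1 and Lgals3bp, with their highest mean at 1d. All 5 lower genes had their lowest mean at 3d. At 1d, 33 of the 36 means lay between those of 0d and 3d. The test of 3d against 1d passed for 6 of the 36 genes, beside 0.334% of all genes. Of these, 2 were higher at 3d, beside 0.0268% of all genes, and 4 lower, beside 0.308%. The test of 3d against 30d passed for 26, beside 1.07%, of which 25 were higher at 3d, beside 0.803%, and 1, Myh1, was lower, beside 0.268%. These tests use the 3d pools that also chose the genes, so the counts describe the 36 and do not stand as separate support. Just inside the threshold against 0d lay Galnt16 (adjusted p = 0.0457) and Lgals3bp, Loxl4, Marcks, Unc13a, Plxna4 and Ccnd1 (0.0442), and just outside it Scn10a (0.0503), and 21 genes lay between 0.05 and 0.10.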

How the data were processed

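RNA of dorsal root ganglia was sequenced at 4 times (0d, 1d, 3d, 30d), with 2 pooled libraries each, grouped by the sample titles. The authors used cutadapt 2.10 for trimming and STAR 2.7.5a for alignment to mm10, and counted read pairs on UCSC genes, without strand, with featureCounts 2.0.1. They deposited counts per gene without normalization, and multimapping reads were not counted.

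The 8 libraries were fitted together in edgeR 4.0.16 (R 4.3.3) with TMM scaling, glmQLFit with robust estimation and the contrast of 3d with 0d. Genes with at least 1 CPM in 2 libraries were tested, and calls were made at a Benjamini-Hochberg adjusted p under 0.05. Adjusted p-values in the text come from this edgeR test unless another tool is named. Standard errors (SE) were obtained by dividing the size of each fold change (log2) by √F. CPM values, those of the list sums included, are scaled by TMM. CPM are not divided by gene length, so levels are not compared between genes.

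The genes named are the called genes and, in each list, called members, up to 4 others with the largest changes, or defining markers. Prss57 and Zfp91 were named after their values were seen, as neighbours of called genes, as were further list members given as examples. The comparison and the 34 lists (450 genes, 411 tested, 20 called) were chosen with earlier results of these data known. On simulated counts for 14948 genes with 200 changed, edgeR called 132 changed and 14 unchanged genes. Of 50 genes each changed by 0.25, 0.5, 1 and 2 (log2) it called 8, 29, 46 and 49. The totals leave little counting error, and the spread between 2 pools per time limits precision, so p-values rest on a spread estimated across genes and times.

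Promoter sequences are from RefSeq (GRCm38.p6) and matched 25 of the 36 called genes. Word sharing used GENCODE vM21 transcripts. DESeq2 1.42.0, limma 3.58.1 and the other alternatives appear in the closing section. Protein sequences were not used here. Results of some genes, among them 1 called gene, are not reported here.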

Additional observations from a re-analysis of the deposited data

Results flagged for a closer look

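The values below compare 3d with the other times after injection for the genes called against 0d, from the same edgeR fit with Benjamini-Hochberg adjusted p over all genes. A result is given where this test passed. The contrasts reuse the 3d pools that chose the genes, so they describe where the genes differ in time and are no separate support.

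Against 1d, 6 genes differed. Interferon-stimulated genes were lower at 3d than at 1d, by a log2 difference of -0.36 for Oasl2 (adjusted p = 0.043), -0.93 for Ifit1 (adjusted p = 0.00232) and -0.30 for Lgals3bp (adjusted p = 0.044). The macrophage receptor gene Cx3cr1 was also lower (-0.76, adjusted p = 0.044). Higher at 3d than at 1d were the kinase gene Sgk1 by 0.62 (adjusted p = 0.0248) and the deubiquitinase gene Otud7b by 0.32 (adjusted p = 0.0134).

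Against 30d, 26 genes differed, 25 of them higher at 3d, and all but 1 of these are given here. Of the genes in neuronal lists, Bdnf was higher by 1.12 (adjusted p = 0.00031), Calca by 0.42, Nptx1 by 0.41 and Ngfr by 0.33. The interferon-stimulated genes Ifit1, Oasl2 and Lgals3bp were higher by 1.13, 0.91 and 0.28. The glucocorticoid-responsive genes Fam107a, Sgk1 and Tsc22d3 were higher by 1.11, 0.73 and 0.41. Among genes of other roles, Pappa was higher by 0.93, Loxl4 by 0.90, Etv5 by 0.63, Ly6c1 by 0.59, Ptgir by 0.49, Ptchd2 by 0.48, Galnt16 by 0.45, Ptpn9 by 0.39, Pfkfb3 by 0.38, Zfp91Cntf by 0.37, Paqr8 by 0.30, Otud7b and Vwa5a by 0.26 each, and Arrb1 by 0.25. The muscle gene Myh1 was lower at 3d than at 30d (-1.35, adjusted p = 0.0315), with muscle RNA uneven between pools as given above.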

How the results depend on the processing

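No called gene changed direction in any of the 15 settings, but every one of the 36 lost its call in at least the 2 settings without a 3d library. The count of called genes (higher, lower) was 38 (33, 5) with edgeR RLE scaling, 37 (32, 5) with upper-quartile scaling, 38 (33, 5) with filterByExpr, and 39 (34, 5) with limma-voom, which lost Ifit1, Myh1 and Lgals3bp. It was 89 (78, 11) without a filter on low counts, 112 (92, 20) with DESeq2, 120 (95, 25) when 0d and 3d were fitted without the other times, and 21 (20, 1) without robust estimation, of which 19 were among the 36. Leaving out 1 library gave 0 to 57 called genes, 0 to 28 higher and 0 to 29 lower, the extremes being 0 without 3d replicate 1 and 57 without 0d replicate 2. In fits chosen after seeing the data, the count was 101 (82, 19) without the 30d libraries and 26 (21, 5) without the 1d libraries. List members called numbered 20, and 36 with DESeq2, 13 without robust estimation, 44 with the compared times alone, 39 without the 30d libraries and 0 to 22 with 1 library left out. Called genes that differ between 3d and 1d numbered 6, and 0 to 4 with 1 library left out, those between 3d and 30d 26, and 7 to 28. The cause of these shifts was not tested. The sample titles give same-numbered pools of different times only a number in common. Over all genes their deviations correlated at -0.023 to 0.087, which cannot show whether some genes share a preparation. Such a shared preparation was not tested. With the replicate number as a block the count was 49 (41, 8), with all 36 genes among them, 24 list members, 9 genes against 1d and 27 against 30d. In the simulation, 8 of 50 genes changed by 0.25 (log2) were called, so most changes of that size would be missed at this depth and replication.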
